A study of Sus scrofa with 105 samples.

Results

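The let-7 and miR-98 family is the group of small RNAs that filled most of every library in this collection of piglet brain. Its members were taken by name from the deposited count table: every row beginning ssc-let-7, with any letter or arm, plus ssc-miR-98, where ssc stands for Sus scrofa. Rows of the same mature name were counted once, by the row with the highest total. This gave 11 members of 448 miRNAs: let-7a, let-7c, let-7d-5p, let-7d-3p, let-7e, let-7f-5p, let-7f-3p, let-7g, let-7i-5p, let-7i-3p and miR-98. The rule uses names and no measured value, although the family was taken up with earlier results of these data known.

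A miRNA is a short RNA that guides an Argonaute protein to messenger RNAs, which are then translated less or degraded. The hairpin of a let-7 gene is cut by Drosha and Dicer into a guide strand, here the 5p arm, and a passenger strand, the 3p arm. The 5p members and miR-98 share the seed, the stretch near the 5′ end that finds targets. The pluripotency factor LIN28 blocks their maturation in early embryos, and mature let-7 accumulates as neural cells differentiate. Known targets in mammals include LIN28 itself, HMGA2, MYC and RAS genes. In RefSeq's pig annotation (Sscrofa11.1) let-7c lies next to miR-99a, let-7e between miR-125a and miR-99b, and 1 of the let-7a genes between miR-125b and miR-100. The let-7d, let-7f, let-7g, let-7i and miR-98 genes have no such neighbour there.

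Small RNA was sequenced from formalin-fixed, paraffin-embedded brain of female piglets, from hippocampus together with amygdala (HA) and from frontal lobe (FL). In the CsA group, 10 HA and 9 FL libraries came from injured piglets given cyclosporine A, an immunosuppressant that inhibits calcineurin, at 20 mg/kg/day intravenously; the loading dose began 6 hours after injury, the infusion ran for 24 hours and survival was 30 hours. The 1 week group held 15 libraries per region from injured, untreated piglets that survived 6 to 8 days. The 1 day group held 10 libraries per region from injured, untreated piglets that survived 1 day. The sham group held 18 libraries per region from sham or naive, untreated piglets with a stated survival of 0 to 8 days. The injury is a diffuse traumatic brain injury, by the title of the study, and neither age nor strain of the piglets is stated in the labels. Survival differed between the CsA group (30 hours) and the 1 day group, and no injured group without drug is labelled at 30 hours.

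Each library carries an animal code, and the codes gave 53 animals, of which 52 had both regions; the study's design text speaks of 50 subjects. The animals are the replicates, if each code is 1 animal. The smallest library held 98008 counts and the largest 12703535 (median 7257404), and 3 libraries held fewer than 1000000. Median totals were 8438371 (FL) and 9243072 (HA) in the CsA group, 6816575 and 6861927 in the 1 week group, 9866050 and 9223635 in the 1 day group, and 4679652 and 5365075 in the sham group. Neuronal marker miRNAs (miR-124a, miR-9, miR-128 and miR-138) were detected, 4 of 4, in every library, and their summed level in CPM, counts brought to a common library size, by TMM as explained below, averaged 39510 in 1 day against 35540 in sham FL libraries and 38040 in 1 day against 32350 in sham HA libraries. The bulk libraries cannot tell a change in the number of cells of a type from a change in RNA per cell. Members of the family differ from each other by only a few bases, so that reads with errors may be counted for a neighbour, and the values of single members carry that uncertainty.

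Family members took 77.6% ± 3.79 of a library's counts (SD, n = 105), with a range of 70.5% to 86.0%. By mean share of the library they held ranks 1 to 6 among all 448 miRNAs. The most abundant was ssc-let-7c at 32.6% of counts, followed by ssc-let-7a at 27.0%. Then came ssc-let-7f-5p at 4.78%, ssc-let-7e at 4.39%, ssc-let-7g at 4.04% and ssc-let-7i-5p at 3.00%. The first miRNA outside the family, miR-26a, had rank 7 at 2.26%. Lower in the order stood ssc-let-7d-5p at 1.06% (rank 11) and ssc-miR-98 at 0.764% (rank 16). The median miRNA of the table took 0.000631%. These shares do not allow for the length or ligation preference of each small RNA, which the counts do not record.

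**Figure D1:**
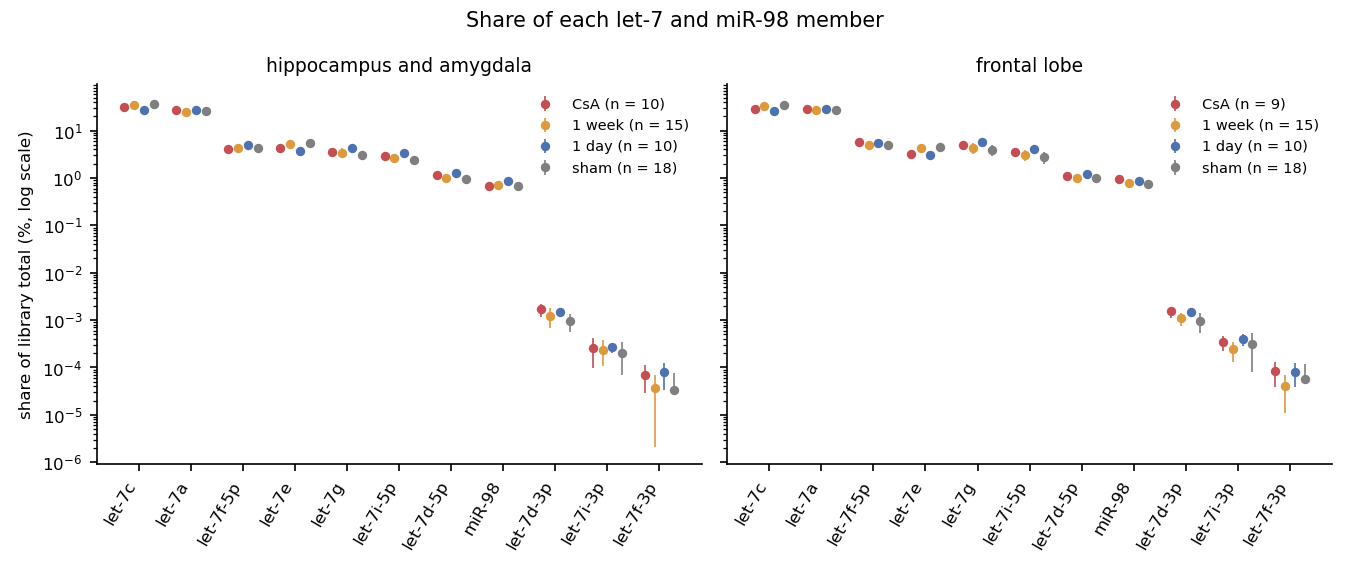
Share of the library total (percent, log scale) of the 11 members in each group, hippocampus and amygdala on the left and frontal lobe on the right; points are means and bars SD over libraries, with no lower bar where the SD exceeds the mean. The 8 members from let-7c to miR-98 lie far above the 3 passenger arms in every group, with let-7c and let-7a at the top.

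The 3p arms were rare. The let-7d-3p arm made up 0.114% ± 0.0386 of the counts of both let-7d arms (SD, n = 105). The corresponding figures were 0.00924% for let-7i-3p and 0.00114% for let-7f-3p. In all, let-7f-3p had 478 counts, with at least 1 count in 83 of 105 libraries, and it did not pass the filter on low counts. The other 10 members passed and were tested.

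Levels from here on are CPM scaled by the trimmed mean of M values (TMM), a method that assumes most miRNAs do not differ between libraries. Because the family holds most of the counts, the scaling matters more for it than for a rare miRNA. Many of the calls or directions that changed with the scaling are given with each comparison, though not all. The test throughout is edgeR's quasi-likelihood test with Benjamini-Hochberg adjustment over all miRNAs tested, and a member is called at an adjusted p under 0.05.

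Within a region, some members kept a near-constant ratio to each other across libraries. The measure is the SD of the log2 ratio of 2 miRNAs over the 53 HA and 52 FL libraries; it is a description, since the libraries share their depth and groups, and no scaling changes it. The ratio of let-7g to let-7i-5p varied least, with an SD of 0.103 in HA and 0.0932 in FL. In the RefSeq annotation these 2 genes have no other let-7 gene among their neighbours. The ratio of let-7f-5p to miR-98 was as steady, at 0.103 and 0.0968; the miR-98 gene lies next to one of the let-7f genes. The SDs were 0.179 and 0.192 for let-7a to let-7f-5p, and 0.183 and 0.203 for let-7c to let-7e. For let-7g to miR-98 they were 0.246 and 0.271, and for let-7a to let-7c 0.297 and 0.307. The widest among the 5p members and miR-98 were let-7e to let-7i-5p in FL (0.61 in HA and 0.712 in FL) and let-7e to let-7g in HA (0.624 in HA and 0.69 in FL).

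Among 186 miRNAs outside the family with a mean of at least 10 CPM in both regions, the ones closest to let-7e were miR-30c-1-3p (SD 0.162 in HA and 0.146 in FL) and miR-30b-3p (0.141 and 0.22). miR-30c-1-3p was also closest to let-7c, at 0.238 and 0.225, followed by miR-432-5p. The closest to both let-7g and let-7i-5p was miR-30e-5p, at 0.148 and 0.205 for let-7g and 0.183 and 0.207 for let-7i-5p. For let-7f-5p the 2 closest were miR-26b-5p and miR-29c, for let-7d-5p they were miR-151-3p and miR-151-5p, and for let-7a they were miR-676-3p and miR-30a-3p. The median SD over all candidates was 0.654 for let-7e, 0.613 for let-7c, 0.454 for let-7g and 0.407 for let-7d-5p.

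The first comparison asks what differed 1 day after injury. The most abundant member, let-7c, and let-7e were lower at 1 day than in sham brain in both regions, while let-7i-5p was higher in both and let-7g was higher in HA. As a share of the library the family took 73.5% ± 1.94 at 1 day and 79.0% ± 3.26 in sham HA libraries (SD, n = 10 and 18). In FL it took 75.9% ± 1.35 at 1 day and 80.4% ± 3.10 in sham libraries. The ranges overlapped, with 71.4% to 77.0% at 1 day against 74.1% to 83.9% in sham for HA, and 73.3% to 77.8% against 74.1% to 85.8% for FL. No test was run on this sum over chosen members.

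Of the 10 members tested, 4 were called in FL, 1 higher (let-7i-5p) and 3 lower (let-7c, let-7e and let-7a), against 44.7% of all 284 miRNAs tested. In HA 5 of 10 were called, 3 higher (let-7g, let-7i-5p and let-7d-5p) and 2 lower (let-7c and let-7e), against 48.6% of all 290. The members were thus called about as often as other miRNAs. Their median log2 fold change was -0.04 in FL, where that of all miRNAs was also -0.04, and 0.13 in HA, where that of all miRNAs was 0.07. DESeq2 called 5 members in FL, against 50% of all miRNAs, and 6 in HA, against 49.3%.

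let-7c is encoded next to miR-99a. Its level in FL ran from 162065 to 264612 CPM at 1 day, with a median of 239911, and from 231752 to 685858 CPM in sham libraries, with a median of 364432. All 10 libraries at 1 day lay below the sham median and 4 lay below the lowest sham library. The mean was 231822 ± 31456 CPM at 1 day and 395575 ± 117437 CPM in sham FL libraries (SD, n = 10 and 18). The log2 fold change was -0.77 (SE 0.16, adjusted p = 0.000128), which is 1.71-fold lower.

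In HA the range of let-7c was 199984 to 306178 CPM at 1 day, with a median of 248767, and 272428 to 593549 CPM in sham libraries, with a median of 378711. Again all 10 libraries at 1 day lay below the sham median, and 7 lay below the lowest sham library, with a log2 fold change of -0.70 (SE 0.15, adjusted p = 0.00018).

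let-7e is encoded between miR-125a and miR-99b. Its FL level ran from 21306 to 33244 CPM at 1 day, with a median of 28351, and from 27323 to 75654 CPM in sham libraries, with a median of 51336. The 10 libraries at 1 day were all below the sham median, and 4 were below the lowest sham library. Its log2 fold change was -0.87 (SE 0.16, adjusted p = 3.92e-05), which is 1.82-fold lower. HA values ran from 28193 to 39124 CPM at 1 day (median 33117) and from 35193 to 87746 CPM in sham (median 67758). With 6 of 10 libraries at 1 day below every sham library, the log2 fold change was -0.85 (SE 0.16, adjusted p = 9.02e-05).

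let-7g and let-7i are each encoded apart from the other let-7 genes. In HA, let-7g ran from 32927 to 52451 CPM at 1 day (median 38291) and from 27017 to 41874 CPM in sham (median 33023), and 9 of 10 libraries at 1 day exceeded the sham median. At 1 day it was higher by 0.25 log2 units (SE 0.08, adjusted p = 0.005). In FL the same value was 0.22 (SE 0.10) with an adjusted p of 0.0632, which missed the threshold; under size factors by relative log expression (RLE) it was 0.30 with an adjusted p of 0.0141, and it was called under the other 3 scalings too. The HA call was lost when entries of the same miRNA were not merged (adjusted p = 0.0691).

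let-7i-5p in HA ran from 24331 to 38908 CPM at 1 day (median 30313) and from 21287 to 32286 CPM in sham (median 25927). The log2 fold change was 0.23 (SE 0.07, adjusted p = 0.00547) in HA and 0.26 (SE 0.10, adjusted p = 0.031) in FL. The groups overlapped, and 3 HA libraries and 1 FL library at 1 day exceeded the highest sham library. The FL call was lost without sham replicate 8 (adjusted p = 0.0519) or without 1 day replicate 1 (0.0533) or 9 (0.0501), and also when libraries under 1000000 counts were left out (0.0638). The HA call was lost without 1 day replicate 1 (0.0522) and with entries not merged (0.0805).

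**Figure D2:**
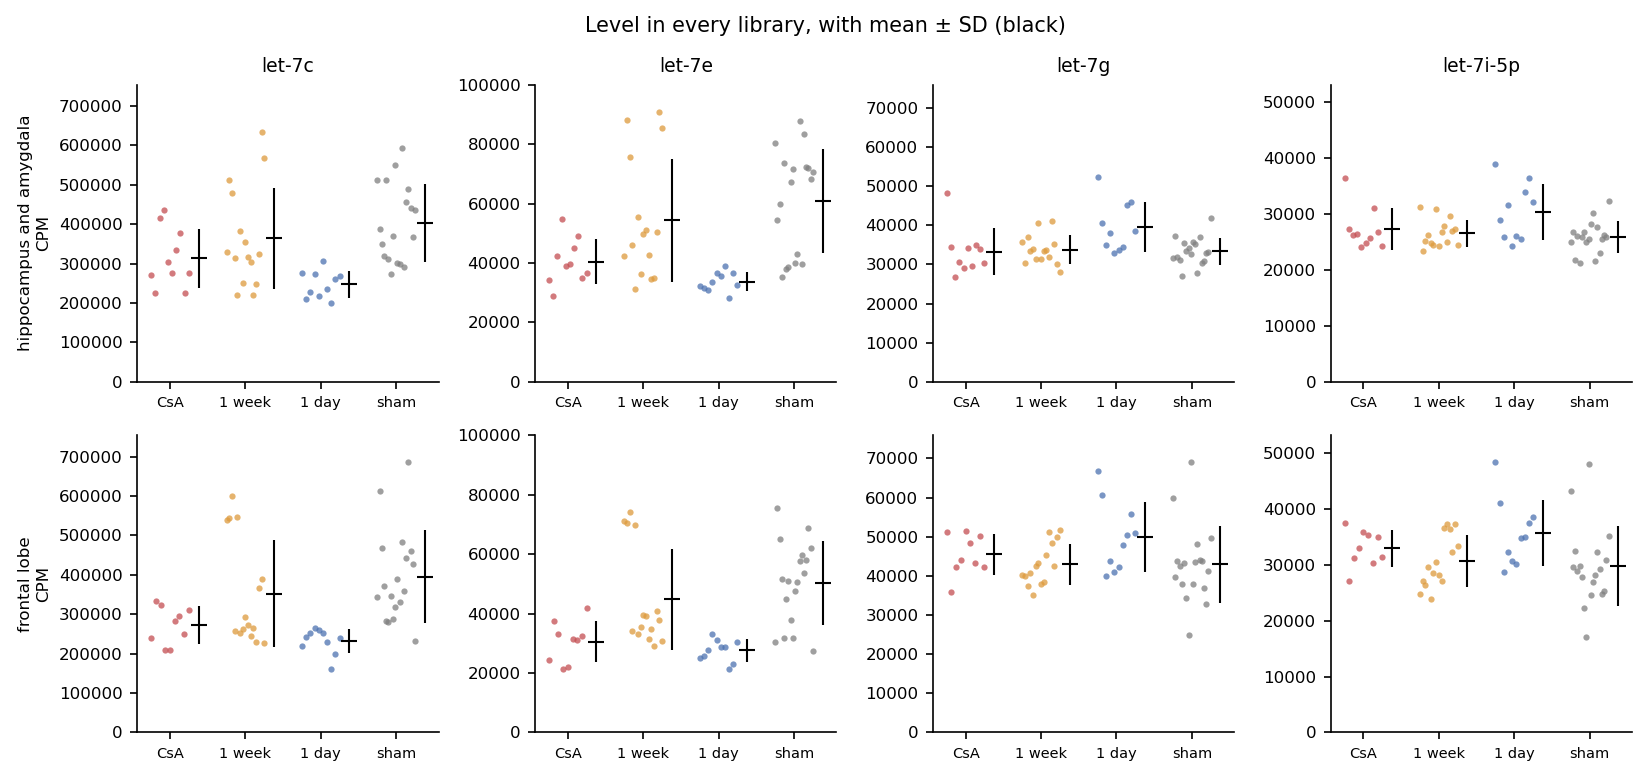
Level (TMM-scaled CPM) of let-7c, let-7e, let-7g and let-7i-5p in every library of the CsA, 1 week, 1 day and sham groups, hippocampus and amygdala above and frontal lobe below; points are libraries, the black bar is the mean and the line its SD. The 10 libraries at 1 day lie in a narrow low band for let-7c and let-7e, while the sham and 1 week libraries spread over a range of more than 2-fold.

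let-7d-5p, whose gene sits beside those of let-7a and let-7f and which represses the nuclear receptor TLX in mouse neural stem cells, was higher in HA at 1 day. It ran from 10023 to 12825 CPM at 1 day (median 11506) and from 8871 to 11429 CPM in sham (median 10218). Here 6 of 10 libraries at 1 day exceeded the highest sham library, although the difference was small, at 0.16 log2 units (SE 0.05, adjusted p = 0.00391). With the factors computed outside the family the HA call was lost (adjusted p = 0.0568), as it was with entries not merged (0.159). In FL the log2 fold change of let-7d-5p was 0.01 (SE 0.05, adjusted p = 0.89). let-7f-5p, miR-98, let-7d-3p and let-7i-3p passed the threshold in neither region under TMM, and their log2 fold changes lay between -0.18 and 0.38.

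let-7a, whose mature sequence is the same as that of the first let-7 found in worms, gave no direction that held across scalings. In FL it ran from 226864 to 277026 CPM at 1 day (median 261559) and from 230818 to 422203 CPM in sham (median 302380), a log2 fold change of -0.24 (SE 0.09, adjusted p = 0.0229) under TMM. Under RLE factors this was -0.16 (adjusted p = 0.12), under library totals alone 0.09 (0.0568) and relative to the family total 0.17 (0.00197). The TMM call was also lost without sham replicate 1 (adjusted p = 0.0524), 2 (0.0621), 14 (0.0609) or 15 (0.0665), or without 1 day replicate 1 (0.0558) or 2 (0.0643). In HA the value was -0.15 (SE 0.09, adjusted p = 0.128) under TMM and 0.21 (0.000429) relative to the family total. Without 1 day replicate 1, the TMM value in HA passed the threshold (adjusted p = 0.0494).

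The median of all miRNAs moves with the scaling. Relative to the TMM fit, library totals alone shift it by 0.284 in FL and 0.243 in HA, and the family total by 0.356 and 0.338. RLE factors shift it less, by 0.077 in FL and -0.0388 in HA, and factors outside the family by 0.0878 and -0.0414. Against this background let-7c and let-7e were lower and called under all 5 scalings in both regions. The log2 fold change of let-7c lay between -0.77 and -0.33 in FL and between -0.75 and -0.31 in HA. For let-7e it lay between -0.87 and -0.44 in FL and between -0.90 and -0.44 in HA. let-7i-5p was higher and called under all 5 in both regions. The split of called members was 1 higher and 3 lower in FL under TMM, 2 and 2 under RLE, 4 and 2 under library totals, and 7 and 2 relative to the family total. In HA it was 3 higher and 2 lower under TMM, 3 and 3 under RLE, and 7 and 2 under both of the last scalings.

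**Figure D3:**
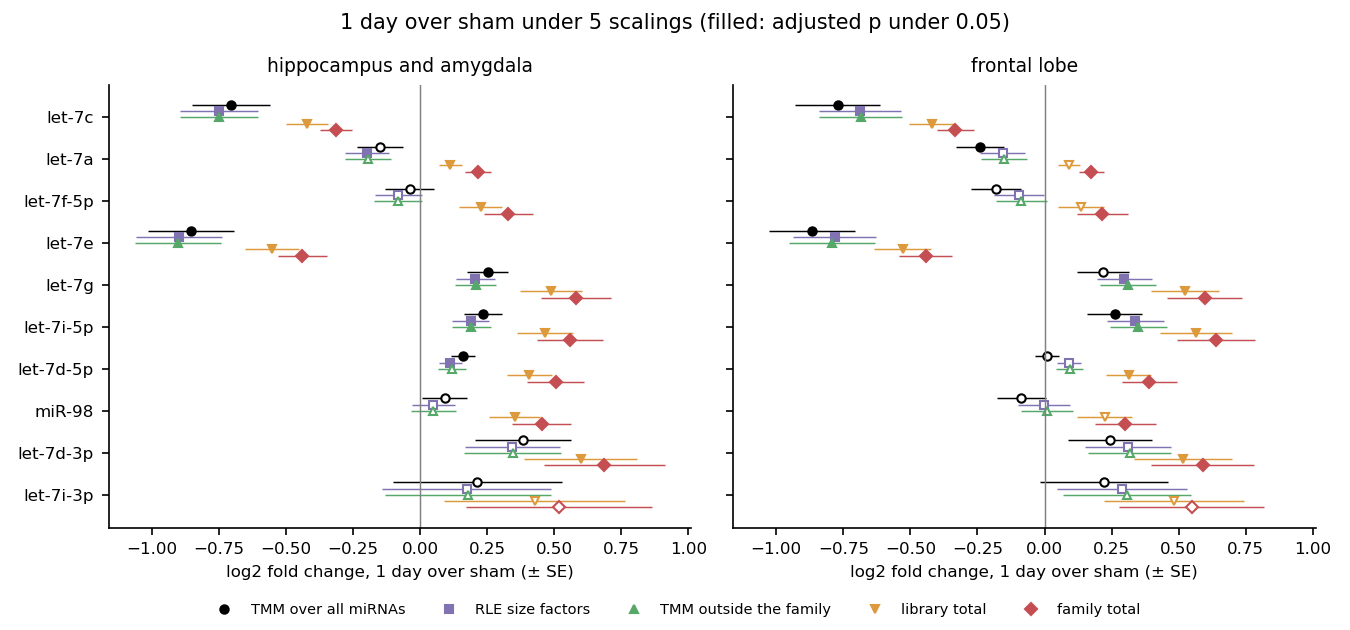
Log2 fold change of 10 members, 1 day over sham, with SE bars, under 5 scalings in hippocampus and amygdala (left) and frontal lobe (right); filled symbols have an adjusted p under 0.05. let-7c and let-7e lie below 0 under every scaling and let-7g and let-7i-5p above it, while let-7a, let-7f-5p and, in frontal lobe, miR-98 change sign between scalings.

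A ratio within a library needs no scaling. The ratio of let-7c to let-7a in HA was 0.987 ± 0.0808 at 1 day and 1.43 ± 0.208 in sham (SD, n = 10 and 18). The HA ranges did not overlap, with 0.836 to 1.12 at 1 day and 1.19 to 1.93 in sham. In FL the ratio was 0.895 ± 0.107 at 1 day and 1.28 ± 0.215 in sham, with ranges of 0.714 to 1.04 and 0.956 to 1.72. The ratio of let-7e to let-7i-5p was 1.14 ± 0.254 at 1 day and 2.42 ± 0.864 in sham HA libraries, and 0.798 ± 0.193 and 1.80 ± 0.614 in FL libraries. In contrast, let-7g to let-7i-5p was 1.31 ± 0.0685 at 1 day and 1.29 ± 0.0740 in sham HA libraries. These ratios were chosen with results of these data known and were not tested. In this comparison 48.6% of all miRNAs were called in HA and 44.7% in FL. How many other pairs of miRNAs have ratios whose ranges do not overlap between the groups was not counted.

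The animal codes begin with 2 digits between 10 and 17, whose meaning the labels do not give, and the groups are spread unevenly over them. Sham animals carry codes 10 or 11 (7 animals), 12 or 13 (5) and 14 to 17 (6); 1 day animals carry only codes 10 or 11 (5) and 12 or 13 (5). CsA animals also carry only these first 2 sets of codes, and 1 week animals carry codes 10 or 11 (6) and 14 to 17 (9). Many codes also hold a letter of unstated meaning. Every 1 day and CsA code has U. Sham codes have no letter or B with 10 or 11, F or I with 12 or 13, and U with 14 to 17. The 1 week codes have no letter with 10 or 11 and U with 14 to 17. Within codes 10 or 11 and 12 or 13, sham animals therefore share no letter with 1 day or CsA animals, and group and letter cannot be told apart there. Among sham animals alone, let-7e in HA averaged 69060 ± 16211 CPM with codes 10 or 11, 39354 ± 2874 CPM with codes 12 or 13 and 69349 ± 9281 CPM with codes 14 to 17 (SD). Sham let-7c in HA averaged 474168, 296944 and 409989 CPM over the same sets. The mean library total of these sham HA libraries was 2977710, 8189190 and 5996160 counts. The sham level of let-7c and let-7e thus differed between sets of codes, and so did depth.

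Within codes 10 or 11, the 1 day difference in HA was -1.03 for let-7c (adjusted p = 0.00343) and -1.02 for let-7e (0.00348), where 104 of all 290 miRNAs were called (35.9%). In FL it was -0.91 for let-7c (adjusted p = 0.00511) and also -0.91 for let-7e (0.00496), where 86 of 278 were called (30.9%). Within codes 12 or 13, with 5 libraries per group, edgeR called 0 of 288 miRNAs in HA and 0 of 284 in FL, of which 53 and 61 had an unadjusted p under 0.05; DESeq2 was not run within code sets. There the HA difference was -0.25 for let-7c (adjusted p = 0.345) and -0.31 for let-7e (0.11), and the FL difference -0.41 (0.171) and -0.36 (0.224).

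Within codes 12 or 13 the let-7c to let-7a ratio, which was not tested, ran from 0.836 to 1.12 at 1 day and from 1.22 to 1.42 in sham HA libraries. In FL it ran from 0.714 to 0.944 at 1 day and from 0.956 to 1.22 in sham libraries. The ratio was chosen with results of these same libraries known, and how many other pairs of miRNAs separate the groups as fully was not counted. A fit with the set of codes as a covariate gave -0.78 for let-7c and -0.81 for let-7e in FL (adjusted p = 1.12e-05 for each), and -0.69 (0.000222) and -0.77 (0.000177) in HA. A fit with the log10 library total as a covariate gave -0.46 (0.0107) and -0.61 (0.00295) in FL, and -0.48 (0.0157) and -0.63 (0.0087) in HA. With that covariate 2 members were called in FL and 3 in HA, against 19.7% of all miRNAs in each region; let-7i-5p (adjusted p = 0.443 in FL and 0.127 in HA) and, in HA, let-7g (0.0985) were not among them. The set of codes as a covariate does not account for the letter in the code. What the codes and their letters stand for, and the part of depth in these differences, was not tested further.

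**Figure D4:**
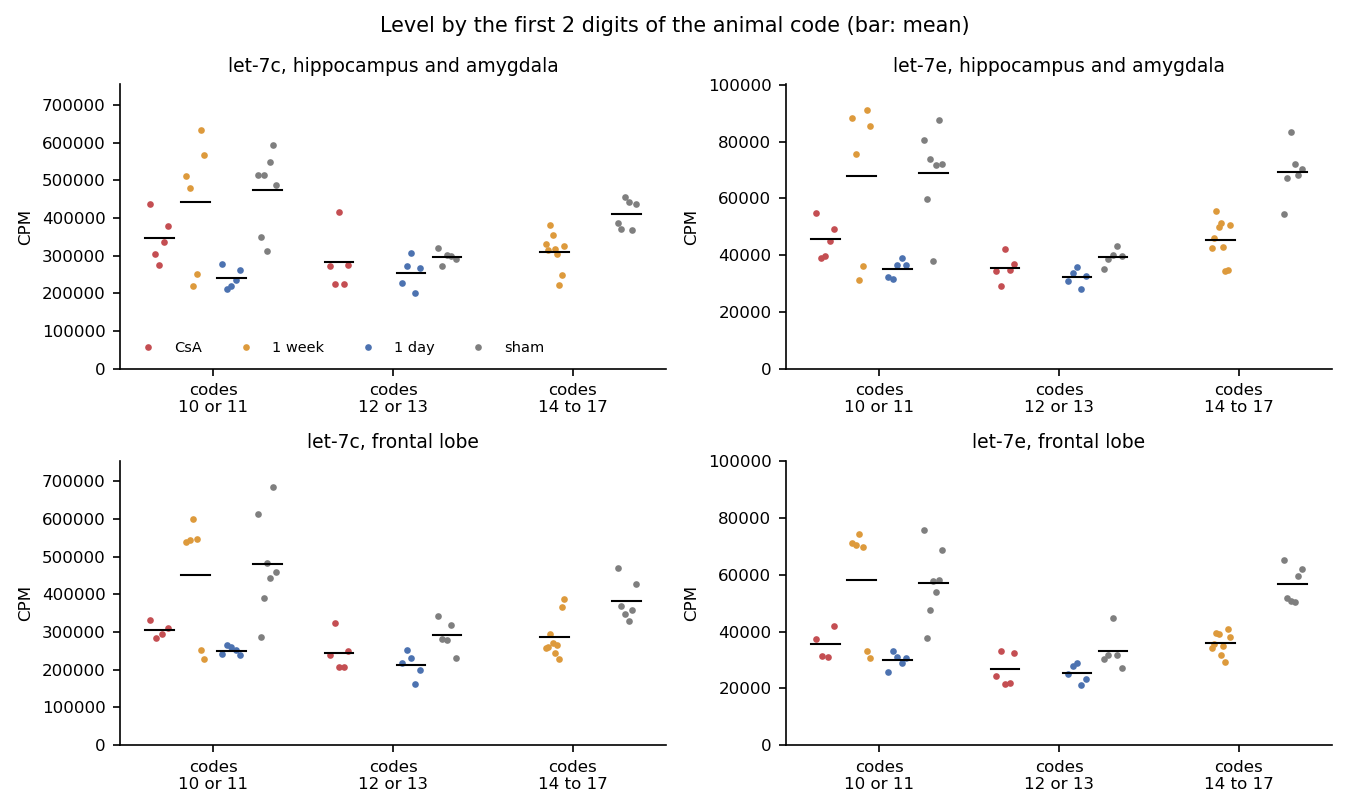
Level (TMM-scaled CPM) of let-7c (left) and let-7e (right) by the first 2 digits of the animal code, hippocampus and amygdala above and frontal lobe below; points are libraries, colours are groups in the order CsA, 1 week, 1 day and sham, and bars are means. Sham let-7e with codes 12 or 13 averages 39354 CPM in hippocampus and amygdala, against 69060 and 69349 CPM for the other 2 sets of sham animals.

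Depth was also set against level within the sham group, where no injury differs (18 libraries per region, 20 relations, 2-sided permutation tests with Benjamini-Hochberg adjustment). Spearman's rho between let-7i-5p CPM and the library total was 0.804 in HA (p = 5e-05, adjusted p = 0.001) and 0.725 in FL (p = 0.00086, adjusted p = 0.00573). Pearson's r was 0.447 in HA (p = 0.0654, adjusted p = 0.218) and 0.483 in FL (p = 0.0566, adjusted p = 0.218), and without the 2 libraries farthest from the median total it was 0.53 and 0.643. For let-7g rho was 0.585 in HA (adjusted p = 0.061) and 0.73 in FL (0.00573), and r was 0.33 (0.312) and 0.481 (0.218). For let-7c Pearson's r was -0.644 in FL (p = 0.00347, 0.0383 after adjustment), rho was -0.546 (p = 0.0195, 0.0697 after adjustment), and r was -0.394 without the 2 farthest libraries. In HA the let-7c values were an r of -0.284 (adjusted p = 0.398) and a rho of -0.534 (0.0697), with an r of -0.626 without the 2 farthest libraries. Within codes 10 or 11, r was -0.225 in HA and 0.116 in FL for let-7i-5p and -0.459 in FL for let-7c (n = 7). Within codes 14 to 17, the same r values were 0.717, 0.454 and 0.111 (n = 6). For let-7g, r was -0.364 in HA and 0.124 in FL within codes 10 or 11, and 0.806 and 0.738 within codes 14 to 17. The relation over all sham animals therefore did not hold alike within the sets of codes.

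Markers of other cells also differed at 1 day; their summed levels are TMM-scaled CPM. Endothelial markers (both miR-126 arms) averaged 6652 CPM at 1 day and 5509 CPM in sham FL libraries, with 1 of 2 called higher, and 5711 and 4329 CPM in HA, with both called higher. Oligodendrocyte markers averaged 1421 CPM at 1 day and 1746 CPM in sham FL libraries, where 2 of 3 were called lower (miR-219b-3p at -0.29, adjusted p = 0.00236, and miR-338 at -0.30, 0.0373), and 867 and 1027 CPM in HA, where 0 of 3 were called. Leukocyte markers averaged 154.5 CPM at 1 day and 161 CPM in sham FL libraries, with 0 of 4 called, and 166 and 151.5 CPM in HA, with 2 of 4 called higher.

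Erythrocyte markers averaged 92.2 CPM at 1 day and 160.1 CPM in sham FL libraries, with 1 of 2 tested called lower (miR-486 at -0.85, adjusted p = 0.00115), and 159 and 203.8 CPM in HA, with 1 of 3 called higher (miR-451 at 1.85, 0.0031). Choroid plexus and epithelial markers averaged 570.2 CPM at 1 day and 389 CPM in sham FL libraries, with 1 of 4 called higher (miR-204 at 0.53, adjusted p = 0.00983), and 661 and 386 CPM in HA, with 0 of 3 called. Of the 4 neuronal markers, 2 were called higher and 1, miR-124a, lower in each region. The part of cell composition in the let-7 differences was not tested.

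The second comparison concerns injured piglets given CsA. Against sham, let-7e was lower in both regions and let-7c was lower in FL; in HA 2 members were higher. The 2 comparisons with sham share the sham libraries, so their likeness is not independent evidence. In FL 2 of 10 members were called, both lower, against 34.2% of all miRNAs; in HA 3 of 10 were called, 2 higher and 1 lower, against 20.3%. The members' median log2 fold change was 0.04 in FL and -0.06 in HA, and over all miRNAs it was 0.02 in each region. DESeq2 called 3 members in FL, against 36.6% of all miRNAs, and 5 in HA, against 22.1%. The split depended on the scaling. In FL it was 1 higher and 2 lower under RLE factors and with factors computed outside the family, 4 higher and 2 lower under library totals alone and 7 higher and 2 lower relative to the family total. In HA it was 1 higher and 3 lower under RLE factors, 1 and 2 with factors outside the family, 2 and 1 under library totals and 3 and 1 relative to the family total.

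In FL, let-7e ran from 21463 to 42004 CPM in CsA libraries (median 31491), against the sham range of 27323 to 75654 CPM. All 9 CsA libraries were below the sham median, and 3 were below the lowest sham library. This gave a log2 fold change of -0.72 (SE 0.17, adjusted p = 0.00148). In HA, let-7e ran from 29040 to 54694 CPM in CsA libraries (median 39302), against 35193 to 87746 CPM in sham libraries. The 10 CsA libraries were all below the sham median of 67758 CPM, and the log2 fold change was -0.59 (SE 0.16, adjusted p = 0.00923). The let-7e call held in both regions under all 5 scalings.

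let-7c in FL ran from 208056 to 332848 CPM in CsA libraries (median 283635), all 9 below the sham median of 364432 CPM. Its log2 fold change was -0.54 (SE 0.16, adjusted p = 0.00944). In HA it ran from 224820 to 436070 CPM in CsA libraries (median 289450), with a log2 fold change of -0.36 (SE 0.14, adjusted p = 0.0644). Relative to the family total the HA value was -0.11 (0.135). The HA value passed under RLE factors (adjusted p = 0.0452) and without sham replicate 7 (0.0411), 10 (0.0469), 11 (0.0498) or 13 (0.0439), or without CsA replicate 4 (0.0405).

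The passenger arm let-7d-3p was higher in CsA HA libraries, at 11.8 to 32.7 CPM (median 14.6), against 4.26 to 17.1 CPM in sham HA libraries (median 9.60). All 10 CsA libraries exceeded the sham median, and the log2 fold change was 0.64 (SE 0.18, adjusted p = 0.00969). As a share of both let-7d arms it was 0.145% in CsA and 0.0993% in sham HA libraries. Within sham libraries the level of let-7d-3p also followed depth, with an r of 0.643 in HA (permutation test, p = 0.00451, 0.0383 after adjustment). The rho was 0.531 (permutation test, p = 0.0241, 0.0697 after adjustment), and r was 0.621 without the 2 farthest libraries, 0.51 within codes 10 or 11 and -0.43 within codes 14 to 17.

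Its partner let-7d-5p differed by 0.13 log2 units in HA (SE 0.05, adjusted p = 0.0371), with all 10 CsA libraries above the sham median. That call was lost without sham replicate 3 (adjusted p = 0.0568) or 12 (0.056), or without CsA replicate 2 (0.0653) or 9 (0.0509), and under RLE factors (0.07), with factors outside the family (0.0839) and with entries not merged (0.233). let-7f-5p in HA, at -0.24 (adjusted p = 0.0554), was called lower under RLE factors (-0.26, 0.0268) and with factors outside the family (-0.25, 0.0469), and relative to the family total its value was 0.01 (0.959). In FL, let-7d-3p had a log2 fold change of 0.38 (SE 0.16, adjusted p = 0.0608), and passed without sham replicate 1 (0.0363), 2 (0.0439), 8 (0.0448) or 9 (0.0307), and under each of the other 4 scalings (0.0107 to 0.0428).

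Within sets of codes the CsA differences of let-7c and let-7e missed the threshold. With codes 10 or 11 the FL values were -0.68 for let-7c (adjusted p = 0.0946) and -0.72 for let-7e (0.0857), and with codes 12 or 13 they were -0.26 (0.426) and -0.34 (0.354). For let-7e in HA they were -0.60 (0.155) and -0.15 (0.598). A fit with the set of codes as a covariate called 3 members in FL, all lower, against 27.8% of all miRNAs. In HA it called 2, 1 higher and 1 lower, against 16.2%. That covariate does not account for the letter in the code. With the log10 library total as a covariate, let-7e in FL was the member called, at -0.50 (adjusted p = 0.0276), against 7.04% of all miRNAs, and let-7c in FL was -0.27 (0.199). In HA that fit called 0 members, against 0.69% of all miRNAs, with let-7e at -0.36 (0.265) and let-7d-3p at 0.36 (0.302).

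Markers differed with CsA as well. In FL, 1 of 4 neuronal markers was called higher and 1 lower (miR-124a at -0.42, adjusted p = 0.0038), 1 of 2 endothelial markers higher, 1 of 3 oligodendrocyte markers lower and 1 of 4 leukocyte markers higher. Of the erythrocyte markers in FL, miR-451 was higher, at 2.21 (adjusted p = 0.00221), and miR-486 lower, at -0.54 (0.0497), and of the choroid plexus and epithelial markers miR-204 was higher, at 0.50 (0.0228). In HA, 1 of 4 neuronal markers and 1 of 3 erythrocyte markers (miR-451 at 1.63, adjusted p = 0.0211) were higher and 2 of 3 oligodendrocyte markers were lower, while 0 of 2 endothelial, 0 of 4 leukocyte and 0 of 3 choroid plexus markers were called. Their part in the let-7 differences was not tested.

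Set directly against the 1 day group, which had a similar survival but no drug, CsA libraries gave no called member. edgeR called 0 of all miRNAs in FL (0%) and 0 in HA (0%). At an unadjusted p under 0.05 there were 12 miRNAs in FL, 1 of them a member, and 69 in HA, 3 of them members. DESeq2 called 0 in FL and 7 in HA (2.41%), with no member among them. For let-7c the log2 fold change was 0.23 (SE 0.18, adjusted p = 0.931), and for let-7e 0.15 (SE 0.18, adjusted p = 0.978), both in FL.

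In HA the CsA minus 1 day difference was 0.34 (SE 0.16, adjusted p = 0.183) for let-7c and 0.26 (SE 0.17, adjusted p = 0.362) for let-7e. The let-7c mean in HA was 313977 ± 74736 CPM in CsA and 247750 ± 34242 CPM at 1 day (SD, n = 10 each), and 4 of 10 CsA libraries exceeded the highest library at 1 day. For let-7g the HA difference was -0.25 (SE 0.09, adjusted p = 0.116), and it passed without CsA replicate 1 (0.0309). The let-7c to let-7a ratio in HA was 1.22 ± 0.178 in CsA libraries, between the 0.987 ± 0.0808 at 1 day and the 1.43 ± 0.208 in sham. No difference between CsA and 1 day was detected at these numbers, which does not show that the groups were alike.

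The third comparison follows the injury to 1 week. At 1 week no member was called against sham in either region, and let-7c and let-7e were higher than at 1 day. Against sham, edgeR called 0 members in FL, where 0% of all miRNAs were called, and 0 in HA, where 0.345% were called. No member had an unadjusted p under 0.05 in either region, and DESeq2 also called 0 members, against 0.352% of all miRNAs in FL and 1.03% in HA. Over all miRNAs, 19 in FL and 15 in HA had an unadjusted p under 0.05. The log2 fold change from sham was -0.17 (SE 0.14, adjusted p = 0.962) for let-7c and also -0.17 (SE 0.14, adjusted p = 0.962) for let-7e in FL.

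At 1 week the libraries covered about as wide a range as in sham. let-7c in FL ran from 227618 to 600611 CPM at 1 week, with a median of 271564, against 231752 to 685858 CPM in sham. let-7e in FL ran from 29156 to 74244 CPM at 1 week, with a median of 37996, against 27323 to 75654 CPM in sham. By set of codes, the FL mean of let-7e at 1 week was 58264 ± 20438 CPM with codes 10 or 11 (n = 6) and 35837 ± 3856 CPM with codes 14 to 17 (n = 9). In the same sets sham libraries averaged 57062 ± 12611 CPM (n = 7) and 56662 ± 6381 CPM (n = 6).

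Within codes 14 to 17 the 1 week difference from sham passed the threshold. There let-7e was lower in FL, at a log2 difference of -0.68 (adjusted p = 7.51e-05), with 29156 to 40771 CPM at 1 week and 50547 to 65156 CPM in sham. In HA the difference was -0.60 (adjusted p = 0.00355). The value for let-7c was -0.44 in FL (adjusted p = 0.00919) and -0.39 in HA (0.0264), and for let-7a -0.32 (0.0038) and -0.31 (0.0264). let-7f-5p was called in FL alone, at -0.30 (0.0051). In that set 23.7% of 270 miRNAs were called in FL and 7.38% of 271 in HA. How many miRNAs had ranges that did not overlap between the groups, as let-7e had in FL, was not counted.

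Within codes 10 or 11 no member was called at 1 week. The let-7e value there was 0.06 in FL and -0.02 in HA, and that of let-7c -0.06 and -0.09, with 0 of 278 and 0 of 290 miRNAs called by edgeR and 18 and 22 at an unadjusted p under 0.05. Whether the 1 week difference itself depended on the set of codes was not tested. Mean totals in FL were 8617800 counts at 1 week and 5392130 in sham with codes 14 to 17, and 4023910 at 1 week and 2462890 in sham with codes 10 or 11.

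Against the 1 day group, 2 of 10 members were called at 1 week in FL, both higher, with 35.9% of all miRNAs called. The other 4 scalings called the same 2 members higher and others lower: 3 under RLE factors (let-7d-5p, let-7g and let-7i-5p) and 4 under each of the other scalings. In HA 5 of 10 were called, 2 higher and 3 lower, with 29.3% of all called. The HA split was 2 higher and 2 lower under RLE factors, 2 and 1 with factors outside the family, 2 and 5 under library totals and 2 and 6 relative to the family total. let-7e was higher by 0.70 in FL (SE 0.16, adjusted p = 0.00103) and by 0.69 in HA (SE 0.16, adjusted p = 0.00266). All 15 FL libraries at 1 week exceeded the 1 day median of 28351 CPM, and 12 exceeded the highest library at 1 day. For let-7c the difference was 0.60 in FL (SE 0.16, adjusted p = 0.00341) and 0.55 in HA (SE 0.15, adjusted p = 0.00529), with 9 of 15 FL and 10 of 15 HA libraries at 1 week above every library at 1 day. Both members kept the call under all 5 scalings in both regions. Within codes 10 or 11, the only set with both groups, let-7e differed by 0.97 in FL (adjusted p = 0.00854) and 1.00 in HA (0.018), and let-7c by 0.85 (0.0148) and 0.94 (0.018), where 22.7% of all miRNAs were called in FL and 11.4% in HA. In that set the 1 week codes have no letter and the 1 day codes have U, so that group and letter cannot be told apart.

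The 3 members lower at 1 week than at 1 day in HA were let-7d-5p, let-7g and let-7i-5p. let-7d-5p differed by -0.21 (SE 0.05, adjusted p = 0.00266), with 10 of 15 libraries at 1 week below the lowest library at 1 day. Within codes 10 or 11 the let-7d-5p value was -0.06 (adjusted p = 0.662), that of let-7g -0.27 (0.14) and that of let-7i-5p -0.20 (0.303). Over all codes, let-7g differed by -0.23 (SE 0.08, adjusted p = 0.0209), a call lost without 1 day replicate 1 (0.136), 2 (0.0568), 4 (0.0549), 8 (0.0881) or 9 (0.0828). let-7i-5p differed by -0.19 (SE 0.07, adjusted p = 0.0432). Its call was lost without 1 day replicate 1 (0.251), 2 (0.0889), 3 (0.075), 4 (0.123), 7 (0.0588), 8 (0.145), 9 (0.159) or 10 (0.109), or without 1 week replicate 2 (0.0665), 3 (0.0586), 4 (0.0503), 6 (0.0615), 8 (0.0582), 11 (0.051) or 15 (0.0609). With factors computed outside the family neither let-7g (adjusted p = 0.0602) nor let-7i-5p (0.0937) was called, nor were they with no filter on low counts (0.063 and 0.11), with entries not merged (0.13 and 0.212) or with the set of codes as a covariate (0.063 and 0.141). With the log10 library total as a covariate neither was called (0.0512 and 0.116). The let-7i-5p call was also lost under RLE factors (0.072) and with DESeq2 (0.0733).

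The fourth comparison sets the regions against each other within each animal, with the animal as a block. Its levels were scaled by TMM over the libraries of both regions together, so that they differ somewhat from those given above for the same libraries. Most members were lower in HA than in FL in sham animals, where let-7e was the exception. In CsA animals let-7c (0.147, adjusted p = 0.232), let-7d-3p (0.0613, 0.777) and let-7d-5p (0.0433, 0.492) also lay above 0. At 1 week so did let-7d-3p (0.0581, 0.753) and let-7c (0.00144, 0.996), and none of these was called. In sham animals 8 of 10 members were called, 7 lower and 1 higher in HA, against 47.3% of all 298 miRNAs. The members' median log2 difference was -0.22, and that of all miRNAs was -0.01. Relative to the family total, which itself differs between regions, 3 members were called lower and 2 higher in HA, and under library totals alone 4 lower and 1 higher.

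In sham animals let-7g differed most among the 5p members and miR-98. It ran from 25458 to 41123 CPM in HA (median 32544) and from 27348 to 67734 CPM in FL (median 43680), and was lower in HA in 17 of 18 animals. The log2 difference was -0.41 (SE 0.07, adjusted p = 2.38e-06), which is 1.32-fold lower in HA, and it was called under all 5 scalings. It was also called in the other 3 groups, at -0.49 in CsA (adjusted p = 2.81e-05, lower in 9 of 9 animals), -0.40 at 1 week (1.49e-05, 15 of 15) and -0.43 at 1 day (0.000122, 9 of 10).

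let-7f-5p and miR-98, which is encoded next to one of the let-7f genes, followed the same direction. In sham animals let-7f-5p averaged 44554 ± 7051 CPM in HA and 54831 ± 9775 CPM in FL (SD, n = 18), a log2 difference of -0.29 (SE 0.06, adjusted p = 0.000112) with 16 of 18 animals lower in HA. miR-98 averaged 6933 ± 930 CPM in HA and 8255 ± 1448 CPM in FL, a difference of -0.25 (SE 0.07, adjusted p = 0.00197). In CsA animals both were lower in HA in 9 of 9 animals, at -0.54 for let-7f-5p (adjusted p = 1.08e-06) and -0.52 for miR-98 (5.93e-06). At 1 week the values were -0.30 (0.000281) and -0.24 (0.00737). At 1 day miR-98 was not called (-0.12, 0.297) and let-7f-5p was -0.20 (0.0406). That let-7f-5p call was lost under library totals alone (0.204), relative to the family total (0.463), with entries not merged (0.0763) and without the animal as a block (0.112). The miR-98 call in sham animals was lost under library totals alone (adjusted p = 0.0661) and relative to the family total (0.152).

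let-7e went the other way in sham animals, with 33503 to 85967 CPM in HA (median 66728) and 26215 to 77931 CPM in FL (median 51330). It was higher in HA in 14 of 18 animals, by 0.21 (SE 0.07, adjusted p = 0.00836), and was called under all 5 scalings; without the animal as a block it was not (adjusted p = 0.223). It was also higher in HA by 0.37 in CsA animals (adjusted p = 0.000615) and by 0.21 at 1 week (0.0142), and differed by 0.19 at 1 day (SE 0.09, adjusted p = 0.0705), where it passed under library totals alone (0.26, 0.00207) and relative to the family total (0.31, 0.00071). The 1 week call was lost when animals with a library under 1000000 counts were left out (0.0934). let-7c, with a log2 difference of -0.02 in sham animals (SE 0.07, adjusted p = 0.861), was called in none of the 4 groups under TMM. Relative to the family total it was called higher in HA in sham (0.09, adjusted p = 0.0423) and CsA animals (0.19, 0.00183). Under library totals alone it was also called higher in CsA animals (0.165, 0.0148).

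The remaining members lay between these. let-7i-5p was lower in HA in all 4 groups, at -0.24 in sham animals (SE 0.07, adjusted p = 0.00241). let-7a was lower in sham (-0.19, adjusted p = 0.00141) and 1 week animals (-0.17, 0.0123), and let-7d-5p in the same 2 groups (-0.13, 0.00411 and -0.11, 0.0293). let-7a was not called under TMM at 1 day (-0.152, 0.061) or in CsA animals (-0.124, 0.137). At 1 day it was called lower under RLE factors (0.0102) and with factors outside the family (0.02). In CsA animals it was called lower under RLE factors (0.0498) and library totals alone (0.0159). In sham animals the let-7d-5p call was lost under library totals alone (adjusted p = 0.524) and relative to the family total (0.847), and the let-7i-5p call relative to the family total (0.108). The rare let-7i-3p was lower in HA too, at -0.59 in sham animals (SE 0.24, adjusted p = 0.0369), a call lost under library totals alone (0.0755) and relative to the family total (0.0982). Called members numbered 6 of 10 in CsA animals, 7 of 10 at 1 week and 4 of 10 at 1 day, where 57%, 43% and 46.6% of all miRNAs were called.

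**Figure D5:**
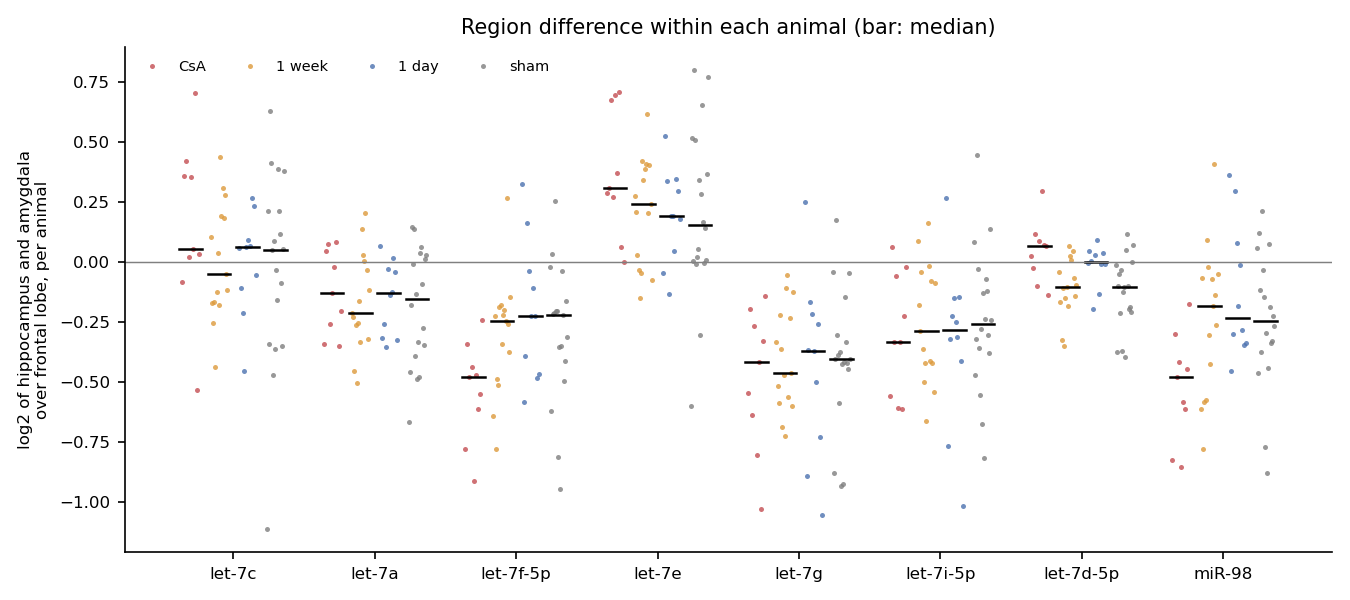
Log2 of the level in hippocampus and amygdala over that in frontal lobe within each animal, for 8 members, with 0.5 CPM added to both; points are animals, colours are the CsA, 1 week, 1 day and sham groups, and bars are medians. let-7g, let-7f-5p, let-7i-5p and miR-98 lie mostly below 0 and let-7e mostly above it in all 4 groups.

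Beside these region differences, summed oligodendrocyte markers averaged 1027 CPM in HA and 1746 CPM in FL sham libraries, each scaled within its region. The part of cell composition in the region differences was not tested. Whether a member's difference from sham was unlike in the 2 regions was tested as an interaction, and edgeR called 0 of 298 miRNAs for CsA, 1 week or 1 day (0%, 0% and 0%). An unadjusted p under 0.05 was reached by 73, 8 and 9 miRNAs, of which 3, 0 and 0 were members. DESeq2 called 25 miRNAs for CsA (8.39%) and 0 for 1 week and 1 day, none of them a member. The smallest adjusted p of a member was 0.106, for let-7d-5p with CsA (0.17, SE 0.06).

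The last comparison takes the 6 measured miRNAs encoded in clusters with let-7 genes in mammals. They are miR-100, miR-99a-5p, miR-99a-3p and miR-99b, of a family that represses mTOR, and miR-125a and miR-125b, relatives of worm lin-4. At 1 day in FL 4 of the 6 were called, 1 higher and 3 lower, against 44.7% of all miRNAs, where let-7e and let-7c were lower. The neighbours of let-7e were lower there too under TMM, at -0.32 for miR-125a (SE 0.10, adjusted p = 0.00748) and -0.41 for miR-99b (SE 0.14, adjusted p = 0.0186). With factors computed outside the family miR-99b missed the threshold (0.051). Under library totals alone the values were -0.03 (adjusted p = 0.882) and -0.12 (0.56), and relative to the family total 0.05 (0.759) and -0.05 (0.827). In HA at 1 day they were not called, at -0.17 (SE 0.08, adjusted p = 0.0608) and -0.05 (SE 0.10, adjusted p = 0.68), where the value of let-7e was -0.85, and relative to the family total both were above 0, at 0.20 (0.13) and 0.30 (0.0373). The third miRNA lower in FL was miR-125b, at -0.22 (adjusted p = 0.0124), a call lost under RLE factors (0.091).

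miR-99a-5p, the neighbour of let-7c, had a log2 fold change of 0.02 in FL (SE 0.10, adjusted p = 0.905) and was higher in HA, by 0.29 (SE 0.11, adjusted p = 0.0209), a call lost under RLE factors (0.0507). Its passenger arm miR-99a-3p was higher at 1 day in both regions, by 0.51 in FL (SE 0.14, adjusted p = 0.00326) and 0.50 in HA (SE 0.14, adjusted p = 0.00424), and it was called under all 5 scalings in both regions. miR-99a-3p was the only partner called with CsA against sham under TMM, at 0.47 in FL (SE 0.15, adjusted p = 0.0122) and 0.63 in HA (SE 0.14, adjusted p = 0.00318). Over all miRNAs, 34.2% were called in FL and 20.3% in HA. In HA, library totals alone also called miR-99a-5p, miR-125a, miR-125b and miR-99b, at 0.22 to 0.39. No partner was called by edgeR at 1 week against sham or with CsA against 1 day, where DESeq2 gave 0.33 for miR-125a in HA (adjusted p = 0.0472).

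Between regions the partners were higher in HA wherever they were called, in 4 of 6 cases in sham animals, 4 at 1 day, 3 at 1 week and 5 in CsA animals. Over all miRNAs, 47.3%, 46.6%, 43% and 57% were called in the same order. In sham animals miR-99b was higher by 0.38 (SE 0.11, adjusted p = 0.00213) and miR-125a by 0.28 (SE 0.07, adjusted p = 0.00146), the direction of let-7e, their neighbour, and both were called under all 5 scalings.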

How the data were processed

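Small RNA libraries were made with the QIAseq miRNA kit from RNA of formalin-fixed tissue, per the labels' protocols, and read trimming used Trimmomatic 0.39 and cutadapt 1.9.1, per the submitters' processing notes; the aligner, counter, annotation, genome build and any use of molecular identifiers: not given in the sources used here. Raw counts fill the deposited table, whole numbers that sum to a different total in each library, for 542 entries, 89 of them 0 everywhere. Reads may not be independent molecules, and the p-values take each animal code as 1 animal. A chi-square test of counts on the 2 most alike libraries gave 4484 with 218 degrees of freedom, and no library was treated as a duplicate.

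Entries of 1 mature name, and differently named entries with totals of at least 100 whose counts differed by under 1% (0.01), were merged to 448 miRNAs. The 2 let-7a entries differed by 0.0491% and the 2 let-7f-5p entries by 2.22%. edgeR 4.0.16 (R 4.3.3) fitted all 4 groups of a region together (TMM, filterByExpr with a minimum count of 10 and total of 15, robust quasi-likelihood, Benjamini-Hochberg over all miRNAs, 0.05, 2-sided). Region differences used 52 animals with the animal as a block: the animal code names both libraries, and the deviations of the 2 libraries of an animal had a median correlation of 0.239, against -0.00168 for different animals. Alternatives were DESeq2 1.42.0, RLE factors, factors computed outside the family, library totals, the family total, other filters, covariates, sets of codes and leaving out each library. The 1 day minus sham test was checked on simulated counts in which 60 miRNAs outside the family were changed 2-fold. It recovered 91.7% of them in FL and 90% in HA, with 3 and 2 false calls. Members were left unchanged there, so a change of the family itself was not checked. Permutation tests used 100000 resamples.

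All members, 6 cluster partners and, for members of at least 1% of counts, the 2 closest miRNAs outside the family were named by rule; members and lists were chosen with earlier results of these data known. Names of neighbouring genes came from RefSeq. miRNA sequences are not used here.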

Additional observations from a re-analysis of the deposited data

Results flagged for a closer look

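Each of the 11 members was looked at in groups of 4 to 10 libraries for a library far from the others, in 44 groups in all. Chance flags about 1 in 20 such groups, and 3 of the 44 were flagged, all in CsA hippocampus and amygdala. let-7d-3p had 32.74 CPM in CsA replicate 3, where the next highest CsA library had 20.04 CPM and the group median was 14.6 CPM. let-7g had 48320 CPM in CsA replicate 1, the next highest 35000 CPM and the median 32340 CPM. let-7i-3p had 5.559 CPM in CsA replicate 5, the next highest 3.038 CPM and the median 2.295 CPM. The call of let-7d-3p for CsA against sham in that region did not change when any single library was left out, and that of let-7g for CsA against 1 day passed the threshold without CsA replicate 1 (adjusted p = 0.0309).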

How the results depend on the processing

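let-7c and let-7e kept their direction and their call, 1 day against sham, 1 week against 1 day (both regions) and CsA against sham in frontal lobe (for let-7e also in hippocampus and amygdala), under all 5 scalings, DESeq2 and every left-out library; within sets of codes and with the total as a covariate they did not always. For the causes of the following changes no test was run. Taken relative to the family total, the 1 day minus sham log2 fold change turned to 0.174 for let-7a, 0.216 for let-7f-5p and 0.301 for miR-98 in frontal lobe, and to 0.215 for let-7a and 0.329 for let-7f-5p in hippocampus and amygdala. The CsA minus sham value turned to 0.122 for let-7a, 0.262 for let-7d-5p and 0.285 for let-7f-5p in frontal lobe and to 0.125 for let-7a in hippocampus and amygdala; 1 week minus 1 day turned to -0.174 and -0.207 for let-7a, and the region difference of let-7c in sham to 0.0904. Under library totals alone the 1 day value of let-7a was 0.0916 (frontal lobe) and 0.112, that of let-7f-5p 0.226 (hippocampus and amygdala), the CsA value of let-7f-5p 0.223 (frontal lobe) and the 1 week minus 1 day value of let-7a -0.124 and -0.142.

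Counts of called members moved as follows; a percentage after a count is the share of all miRNAs called in the same fit. For 1 day minus sham in frontal lobe (4 called), there were 9 relative to the family total (53.2%), 2 with the total as a covariate (19.7%) and 0 within codes 12 or 13 (0%). In hippocampus and amygdala (5 called) there were 9 relative to the family total (59.3%), 9 under library totals (56.9%), 3, all lower, with entries not merged (48.5%), 3 with the total as a covariate (19.7%) and 0 within codes 12 or 13 (0%). For CsA minus sham in frontal lobe (2 called) there were 9 relative to the family total (46.5%), 6 under library totals (44%), 1 with the total as a covariate (7.04%), and 0 within codes 10 or 11 and within codes 12 or 13 (0% each). In hippocampus and amygdala (3 called) there were 5 with DESeq2 (22.1%), 0 with the total as a covariate (0.69%), 1 within codes 10 or 11 (6.55%) and 0 within codes 12 or 13 (0%). For 1 week minus sham (0 called) there were 4 in frontal lobe (23.7%) and 3 in hippocampus and amygdala (7.38%) within codes 14 to 17. For 1 week minus 1 day in frontal lobe (2 called, both higher) there were 5 with RLE factors (39.4%), 6 with factors computed outside the family (40.5%), 6 relative to the family total (29.2%), 6 under library totals (32%), 6 with DESeq2 (43.3%), each with 2 higher, and 4, all higher, within codes 10 or 11 (22.7%). In hippocampus and amygdala (5 called) there were 3 with factors outside the family (23.1%), 8 relative to the family total (25.5%), 3 with no low-count filter (17.5%), 3 with entries not merged (32.1%), 3 with the total as a covariate (22.1%), 3 with the set of codes as a covariate (6.55%) and 2 within codes 10 or 11 (11.4%). For the region difference, sham animals (8 called) gave 5 relative to the family total (43%) and 5 under library totals (44%), and 1 week animals (7 called) gave 3 relative to the family total (38.9%). Without the animal as a block, 1 day animals gave 2 called members (36.6%) where 4 were called with the block, let-7e lost its region call in sham, 1 week and CsA animals, and no other count of region calls moved by over 1.5 times. Among sham animals with codes 14 to 17, the correlation with the library total was -0.43 for let-7d-3p in hippocampus and amygdala, and -0.823 for let-7d-3p and 0.111 for let-7c in frontal lobe, against 0.643, 0.796 and -0.644 over all sham animals. Leaving out 1 library at a time moved the count of called members to between 2 and 5 in frontal lobe and between 5 and 6 in hippocampus and amygdala for 1 day minus sham, 2 to 4 and 2 to 5 for CsA minus sham, 2 to 2 and 3 to 5 for 1 week minus 1 day, 0 to 0 and 0 to 0 for 1 week minus sham, and 0 to 0 and 0 to 1 for CsA minus 1 day. With entries not merged the family's share was 71.8% (CsA) and 69.4% (1 day) in hippocampus and amygdala, and 72.8% and 71.6% in frontal lobe.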
